A study of Mus musculus with 10 samples.

Results

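The genes described here are 6 mouse genes of temperature-sensitive RNA processing: Cirbp and Rbm3, which encode cold-inducible RNA-binding proteins, and Clk1, Clk2, Clk3 and Clk4, which encode the Cdc2-like kinases. They were taken with every probe set that the array annotation gives them, which made 6 of the 18193 genes and 8 of the 45037 probe sets other than controls. Cirbp, Clk1, Clk2 and Clk3 had 1 probe set each, and Clk4 and Rbm3 had 2 each. The annotation gives both Rbm3 probe sets 2 symbols, Rbm3 and the pseudogene Rbm3-ps, so their signal cannot be assigned to Rbm3 alone and they are called the Rbm3/Rbm3-ps probe sets. The 2 sets of Clk4 share their annotation, as do the 2 Rbm3/Rbm3-ps sets, so they are not counted as independent members.

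CIRBP and RBM3 are small proteins with an RNA recognition motif followed by a glycine-rich tail. Mammalian cells make more of both at mild hypothermia, and both bind mRNA and change its stability, translation and choice of polyadenylation site. CIRBP is also known to bind transcripts of the circadian clock, Clock among them. The CLK kinases are dual-specificity kinases, able to phosphorylate serine, threonine and tyrosine, and sit largely in the nucleus. Their best known substrates are the SR proteins, splicing factors with tails rich in arginine and serine, which CLKs release from nuclear speckles by phosphorylating them. The activity of CLK1 and CLK4 is known to fall as temperature rises within the physiological range, and transcripts of Clk1 and Clk4 are themselves alternatively spliced, with forms that keep introns or skip an exon and do not give an active kinase.

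The arrays measured 4 groups of mouse embryonic fibroblasts (MEF), 1 array per sample. KO-labelled MEF(-/-) cells, the line called an hsp70 knockout, were preshocked on 3 arrays and left unheated on 3. Rescue-labelled MEF(+/+) cells, the line called an hsp70 rescue, were preshocked on 2 arrays and left unheated on 2. Preshocked cells had been plated for 20 hours, were heated in their wells to 43 °C in a water bath, for 30 minutes, and were lysed after 3 hours of recovery; unheated cells were lysed at 23 hours. All groups shared DMEM with 10% serum and Normocin, 96-well plates under a gas-permeable membrane, and a pool of 144 wells for each sample. How each line was derived, and whether it is a clone, is not stated in the sources used. Nothing says that the samples of 1 group came from different cultures, and the p-values therefore rest on a spread between samples that may be technical.

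The label of the knockout line could not be checked in full. The 3 probe sets of Hspa1b, an inducible Hsp70 gene, read 15500 to 39360 in KO-labelled preshocked arrays against 63.24 to 476.7 in KO-labelled unheated arrays, and 24680 to 43330 in rescue-labelled preshocked arrays against 196.2 to 675 in rescue-labelled unheated arrays; the Hspa1a probe set stayed between 3.495 and 25.81 everywhere. Whether these probe sets lie in the deleted part is not known here, and every direction given between the lines carries this limit. The fibroblast label could be checked in part: the median rank of the 12 fibroblast markers was percentile 89.1 of the probe sets on an array, with Vim at 100 and Col1a2 at 99. Lower in the list, Pdgfra, Dcn and Thy1 lay at 66.3, 61.4 and 55.3, and Lum and Fap at 37.4 and 23.1. Arrays 5 and 6, a KO-labelled preshocked and unheated array, stood apart: their median intensities were 100.4 and 107, against 50.7 to 73.7 on the other 8 arrays, and they lay alone at one end of the first principal component (35.3% of the variance). Preshocked arrays separated from unheated ones on the second (19.2%). Each preshocked array was paired with the unheated array of the adjoining label number. The labels do not state this pairing, so the values within pairs and the fits with the pair as a block rest on an assumption.

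Promoter sequence from RefSeq (build GRCm38.p6) was at hand for 4 of the 6 genes, in windows of 300 bases that run from 250 before the annotated start to 50 after it. Of the 5 windows, 3 are shown because they belong to the cold-inducible Cirbp, to Clk2, whose signal was lower after preshock, and to Clk4, one of the kinases with the opposite sign. Capitals mark matches to the motifs searched, and all sequences are written 5′ to 3′ on the gene's strand, which is the plus strand in each.
Cirbp, chr10:80167589-80167888: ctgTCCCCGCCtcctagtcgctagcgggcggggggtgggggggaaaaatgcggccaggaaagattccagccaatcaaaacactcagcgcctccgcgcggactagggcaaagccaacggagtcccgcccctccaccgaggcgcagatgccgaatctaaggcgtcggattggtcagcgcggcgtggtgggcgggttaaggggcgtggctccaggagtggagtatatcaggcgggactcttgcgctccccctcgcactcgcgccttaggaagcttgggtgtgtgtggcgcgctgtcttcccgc
Clk2, chr3:89164545-89164844: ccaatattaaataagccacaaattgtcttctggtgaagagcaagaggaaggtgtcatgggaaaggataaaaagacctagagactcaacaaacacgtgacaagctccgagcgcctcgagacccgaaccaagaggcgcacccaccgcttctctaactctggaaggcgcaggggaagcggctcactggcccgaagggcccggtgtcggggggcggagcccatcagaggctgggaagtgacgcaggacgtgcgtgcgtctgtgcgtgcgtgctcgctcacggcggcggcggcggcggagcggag
Clk4, chr11:51262864-51263163: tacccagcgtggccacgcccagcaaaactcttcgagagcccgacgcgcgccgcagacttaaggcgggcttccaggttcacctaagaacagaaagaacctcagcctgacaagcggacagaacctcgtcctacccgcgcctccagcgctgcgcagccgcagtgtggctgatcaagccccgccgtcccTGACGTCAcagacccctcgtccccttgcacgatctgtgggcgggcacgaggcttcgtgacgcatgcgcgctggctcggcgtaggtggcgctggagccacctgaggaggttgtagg

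Both strands were searched for 4 motifs, none of which overlapped another in these windows. The octamer TCCCCGCC, described as a mild-cold response element of the mouse Cirbp promoter, began at position -247 from the start in the Cirbp window shown and was absent from the second Cirbp window and from those of Clk2, Clk3 and Clk4; 5.38% of all 32851 promoter windows hold it. The palindromic cAMP response element TGACGTCA, chosen after the sequences were seen, began at position -65 in the Clk4 window and is in 1.79% of all windows. The arrangements TTCNNGAA and GAANNTTC of heat shock element units were in 0 of the 5 member windows, against 8.52% and 7.86% of all windows. These are matches of letters in a window and no measure of binding.

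Clk1 and Clk2 moved in opposite directions at 3 hours after preshock. Averaged over both lines, Clk1 rose 1.91-fold (0.93 ± 0.21 log2, SE) and Clk2 fell by 0.71 ± 0.11 on the log2 scale, a level 1.64-fold lower. Clk4 and Clk3 had values above 0 in all 5 pairs without a call, at 0.67 ± 0.34 and 0.41 ± 0.27 log2. Cirbp stood at -0.36 ± 0.25 and the brighter Rbm3/Rbm3-ps probe set at -0.04 ± 0.12, both without a call. Limma called 2 of the 5 members in its gene fit (Rbm3 has no probe set of its own), where 4.42% of the 10915 genes tested were called, 1.84% as higher and 2.57% as lower; the adjusted p was 0.0483 for Clk1 and 0.0129 for Clk2, and 0.0783 and 0.0266 in the fit over probe sets with 1 symbol, where Clk1 was not called. A call means an adjusted p under 0.05 after Benjamini-Hochberg adjustment over all genes tested, and the median change over those genes was -0.04 log2. Fewer cells making a transcript and less of it in each cell cannot be told apart in these pooled lysates.

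**Figure D1:**
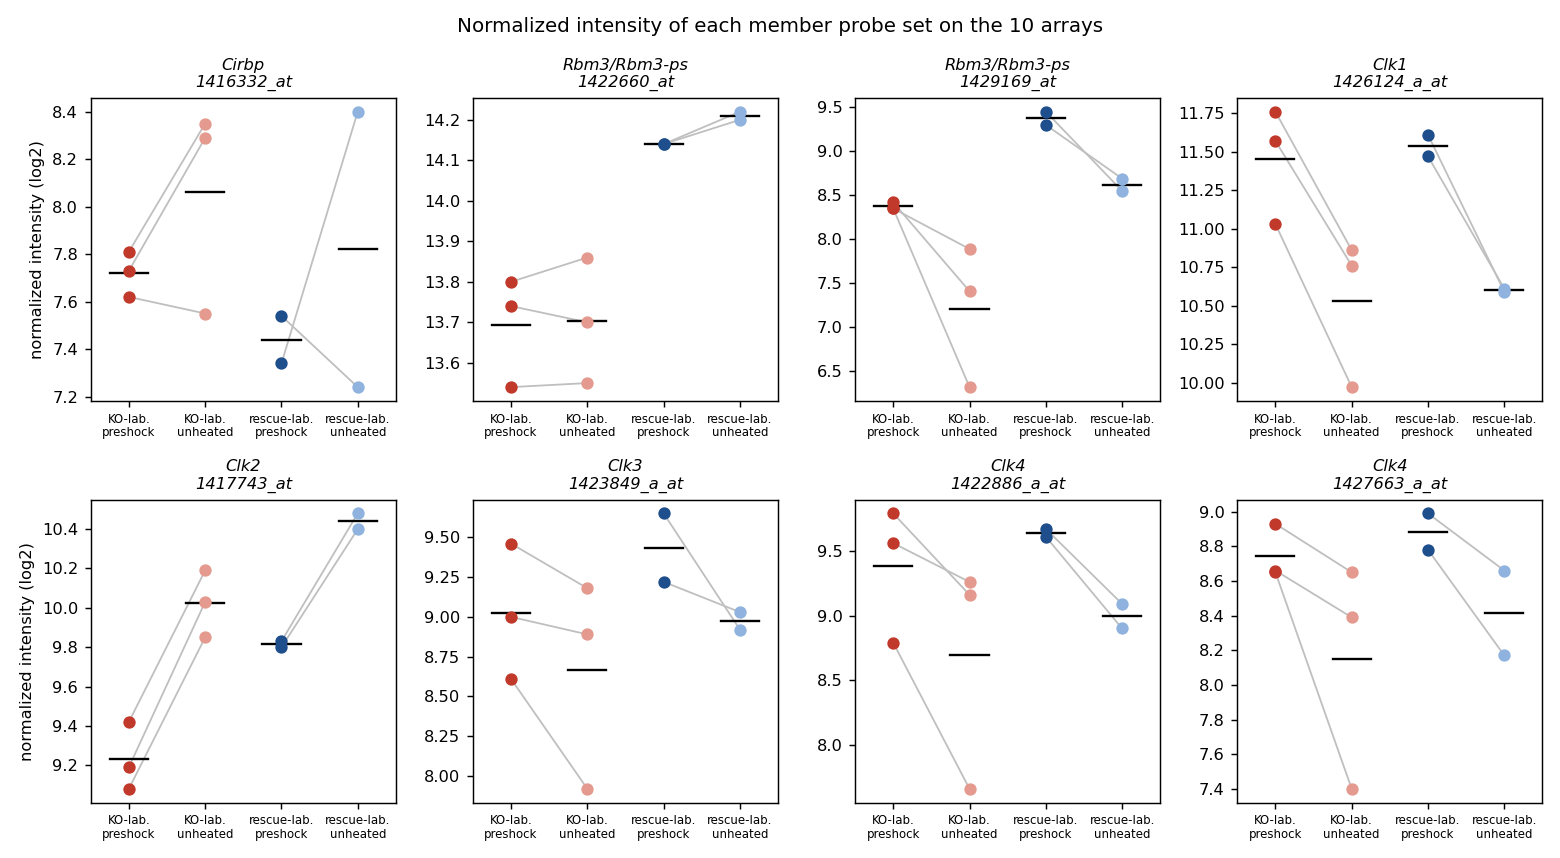
Normalized intensity (log2) of the 8 member probe sets on the 10 arrays, with the KO-labelled line in red and the rescue-labelled line in blue, each with its preshocked arrays left of its unheated arrays. Dots are arrays, black bars group means and grey lines join the arrays of a pair; each panel has its own scale. Clk1 lies higher and Clk2 lower in preshocked than in unheated arrays of both lines, without overlap.

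Clk1, a kinase that phosphorylates SR proteins and autophosphorylates, had deposited intensities of 2044, 3067 and 3630 on the KO-labelled preshocked arrays 5, 11 and 13, against 1033, 1736 and 1868 on the unheated arrays 6, 12 and 14. The rescue-labelled preshocked arrays 31 and 43 read 2917 and 3166, against 1592 and 1581 on the unheated arrays 32 and 44. Every preshocked array of a line lay above every unheated array of that line, and arrays 5 and 6 were the lowest of their groups. Groups without overlap and higher after preshock made up 5.63% of the genes tested in the KO-labelled arrays and 16.4% in the rescue-labelled ones. On the normalized scale the Clk1 means were 11.45 ± 0.38 in KO-labelled preshocked and 10.53 ± 0.49 in KO-labelled unheated arrays (SD, n = 3 each), and 11.54 ± 0.10 in rescue-labelled preshocked and 10.60 ± 0.01 in rescue-labelled unheated arrays (SD, n = 2 each). The 2 preshocked groups did not differ from each other beyond their spread, nor did the 2 unheated groups. Within pairs the Clk1 difference was 1.06, 0.81 and 0.91 log2 in the KO-labelled line and 0.86 and 1.02 in the rescue-labelled line. Line by line limma did not call it, at 0.92 ± 0.27 log2 in KO-labelled cells (adjusted p = 0.163) and 0.94 ± 0.33 in rescue-labelled cells (adjusted p = 0.414), where 1.77% and 0.357% of genes were called, with 0.944% and 0.275% called as higher. With the pair as a block Clk1 passed in both lines (limma adjusted p = 0.0145 and 0.037) and in their mean (0.00597), in a fit that called 9.15%, 1.5% and 17.4% of genes. The mean was 0.91 log2 without arrays 5 and 6 (limma adjusted p = 0.00682).

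The Clk1 call on the mean of both lines ended with arrays centred on their medians in place of quantile normalization (adjusted p = 0.404), with all genes kept (0.147), with probe sets of a gene averaged (0.0713) and in 8 of the 10 fits that left out 1 array (limma adjusted p from 0.0587 to 0.159). It held without array 5 (0.0294) or array 6 (0.0452), and the change lay between 0.80 and 1.05 log2 in all 17 alternatives.

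Clk2, a second kinase of SR proteins, which is also known in mouse liver as a target of insulin signalling, had deposited intensities of 572.1, 566.6 and 619 on the KO-labelled preshocked arrays 5, 11 and 13, against 957.7, 1065 and 1161 on the unheated arrays 6, 12 and 14. The rescue-labelled preshocked arrays 31 and 43 read 861.7 and 910.2, against 1451 and 1403 on the unheated arrays 32 and 44. All preshocked arrays of a line lay below its unheated arrays, which held for 10.7% of genes in the KO-labelled and 22.3% in the rescue-labelled line. The normalized means were 9.23 ± 0.17 in KO-labelled preshocked and 10.02 ± 0.17 in KO-labelled unheated arrays (SD, n = 3 each), and 9.81 ± 0.02 in rescue-labelled preshocked and 10.44 ± 0.06 in rescue-labelled unheated arrays (SD, n = 2 each). No group overlapped another, and rescue-labelled unheated arrays were highest, followed by KO-labelled unheated, rescue-labelled preshocked and KO-labelled preshocked arrays in that order, with KO-labelled unheated and rescue-labelled preshocked arrays closest. The Clk2 pair differences were -0.77, -0.84 and -0.77 log2 in the KO-labelled pairs and -0.66 and -0.59 in the rescue-labelled pairs; 22% of all genes tested were lower in all 5 pairs.

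Clk2 was the only member called in a single line: it fell by 0.79 ± 0.14 log2 in KO-labelled cells (limma adjusted p = 0.0354), a level 1.73-fold lower, beside 0.825% of genes called as lower. In rescue-labelled cells, where 0.0825% of genes were called as lower, the value was -0.63 ± 0.18 log2 (limma adjusted p = 0.28), and 0.0425 with the pair as a block; the block gave 0.0138 in KO-labelled cells and 0.00597 on the mean. The KO-labelled call ended in 9 of the 10 fits without 1 array, all but that without array 6 (limma adjusted p from 0.0567 to 0.139), without arrays 5 and 6 (0.0677), with median centring (0.936), with all genes kept (0.138) and with probe sets averaged (0.0647), while the value stayed between -0.89 and -0.71 log2. The call on the mean of both lines ended without array 31 (0.0571), 43 (0.0588) or 32 (0.0629), with median centring (0.414) and with all genes kept (0.0631), and held without arrays 5 and 6 (-0.73 log2, limma adjusted p = 0.0155).

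Clk1 and Clk2 can be compared with each other without any scaling between arrays, because both probe sets sit on the same array. The log2 ratio of deposited Clk1 to Clk2 intensity was higher on the preshocked array of every pair, by 1.73, 1.73 and 1.87 in the KO-labelled pairs and by 1.63 and 1.63 in the rescue-labelled pairs. The ratio of Clk4 (1422886_a_at) to Clk2 was higher by 1.64, 1.45 and 1.12 in the KO-labelled pairs and by 1.24 and 1.27 in the rescue-labelled pairs. A ratio of this kind shows that the members changed unequally, and not which of them changed.

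Clk4, the kinase closest to Clk1 in sequence, was read by 2 probe sets that agreed in sign. The brighter one, 1422886_a_at, had deposited intensities of 481, 863.8 and 693.8 on KO-labelled preshocked arrays 5, 11 and 13, against 259.2, 594.2 and 598.3 on unheated arrays 6, 12 and 14. On the rescue-labelled arrays it read 764.2 and 799.8 on preshocked arrays 31 and 43, against 543.5 and 512.4 on unheated arrays 32 and 44. The KO-labelled groups overlapped, since array 5 read below the unheated arrays 12 and 14. The rescue-labelled groups did not, with preshocked arrays higher, as for 16.4% of the genes tested in that line. The normalized Clk4 means were 9.38 ± 0.53 in KO-labelled preshocked and 8.70 ± 0.90 in KO-labelled unheated arrays (SD, n = 3 each), and 9.64 ± 0.04 in rescue-labelled preshocked and 8.99 ± 0.13 in rescue-labelled unheated arrays (SD, n = 2 each), with both preshocked groups above both unheated ones on average and each KO-labelled group overlapping its neighbours in level. Within pairs all 5 differences were above 0, at 1.13, 0.63 and 0.30 log2 in KO-labelled and 0.59 and 0.71 in rescue-labelled cells, a pattern found in 12.6% of all genes tested. The mean change of 0.67 ± 0.34 log2 was not called (limma adjusted p = 0.382), passed with the pair as a block (0.0354) and passed, at 0.57, without arrays 5 and 6 (0.0385). The second probe set, 1427663_a_at, gave pair differences of 1.25, 0.28 and 0.27 log2 in KO-labelled and 0.61 and 0.33 in rescue-labelled cells; its mean of 0.53 ± 0.25 was not called in a fit over probe sets with 1 symbol (limma adjusted p = 0.406), nor with the block (0.135), where these fits called 2.26% and 11% of probe sets. Over the 10 arrays the 2 Clk4 probe sets had a Pearson r of 0.874, with the arrays' scaling and the preshock shared between them.

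Among the kinases, the error of Clk3 was the largest relative to its change. It read 429, 492.8 and 639.4 on KO-labelled preshocked arrays 5, 11 and 13, against 298.7, 492.9 and 561 on unheated arrays 6, 12 and 14, and 551.4 and 822.8 on rescue-labelled preshocked arrays 31 and 43, against 519.3 and 522.8 on unheated arrays 32 and 44. The KO-labelled groups overlapped widely. The normalized Clk3 means were 9.02 ± 0.42 in KO-labelled preshocked and 8.66 ± 0.66 in KO-labelled unheated arrays (SD, n = 3 each), and 9.43 ± 0.30 in rescue-labelled preshocked and 8.98 ± 0.07 in rescue-labelled unheated arrays (SD, n = 2 each). Their order was that of Clk4, with KO-labelled preshocked and rescue-labelled unheated arrays within their spread of each other. The pair differences of 0.69, 0.11 and 0.28 log2 in KO-labelled and 0.19 and 0.72 in rescue-labelled cells were all above 0, but the mean of 0.41 ± 0.27 was not called (limma adjusted p = 0.55, and 0.0947 with the block). In KO-labelled cells the value of 0.36 ± 0.34 log2 became -0.01 without array 6. Clk1, Clk3 and the 2 Clk4 probe sets carry the suffix with which the array's maker marks sets that match several transcripts of 1 gene, so a shift between splice forms would not be seen as such here.

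**Figure D2:**
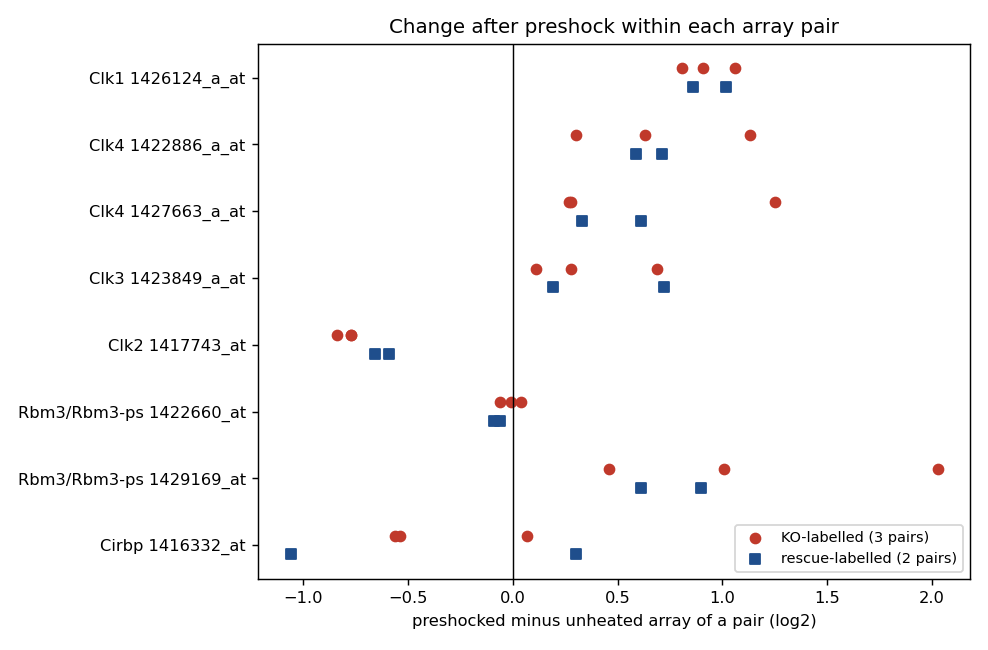
Preshocked minus unheated array (log2, horizontal axis) in each of the 5 pairs for the 8 member probe sets (vertical axis), with red circles for the 3 KO-labelled pairs and blue squares for the 2 rescue-labelled pairs; 2 of the KO-labelled Clk2 circles coincide at -0.77. Clk1, Clk3 and both Clk4 sets lie right of 0 in every pair, Clk2 lies left of 0 in every pair, and Cirbp lies on both sides.

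Cirbp was not called after preshock in the gene fit, and neither Rbm3/Rbm3-ps probe set was called in the fit over all probe sets described below. Cirbp read 266.7, 209.5 and 171.3 on KO-labelled preshocked arrays 5, 11 and 13, against 380.4, 332.4 and 168.9 on unheated arrays 6, 12 and 14. It read 160.3 and 148.5 on rescue-labelled preshocked arrays 31 and 43, against 137.3 and 363.8 on unheated arrays 32 and 44. The groups of each line overlapped, and the normalized means were 7.72 ± 0.10 in KO-labelled preshocked and 8.06 ± 0.45 in KO-labelled unheated arrays (SD, n = 3 each), and 7.44 ± 0.14 in rescue-labelled preshocked and 7.82 ± 0.82 in rescue-labelled unheated arrays (SD, n = 2 each). Array 32 was the lowest of all 10 on the normalized scale, at 7.24, and array 44, of the same group, the highest, at 8.40. From high to low the means ran KO-labelled unheated, rescue-labelled unheated, KO-labelled preshocked and rescue-labelled preshocked, and all 4 lay between these arrays 32 and 44. Within pairs Cirbp differed by -0.54, -0.56 and 0.07 log2 in KO-labelled and by 0.30 and -1.06 in rescue-labelled cells. Limma gave -0.34 ± 0.31 in KO-labelled cells (adjusted p = 0.859), -0.38 ± 0.39 in rescue-labelled cells (adjusted p = 1) and -0.36 ± 0.25 on their mean (adjusted p = 0.582). The 95% interval of the mean, -0.93 to 0.21 log2, leaves room for a fall of the size of the Clk2 change as well as for none. Without array 44 the rescue-labelled value was 0.20.

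The brighter Rbm3/Rbm3-ps probe set, 1422660_at, read 11550, 13890 and 14320 on KO-labelled preshocked arrays 5, 11 and 13, against 11480, 12180 and 13350 on unheated arrays 6, 12 and 14. It read 22490 and 18210 on rescue-labelled preshocked arrays 31 and 43, against 20430 and 18510 on unheated arrays 32 and 44. The normalized means were 13.70 ± 0.13 in KO-labelled preshocked and 13.70 ± 0.15 in KO-labelled unheated arrays (SD, n = 3 each), and 14.14 and 14.21 in rescue-labelled preshocked and unheated arrays (n = 2 each, SD at most 0.02), so the 2 KO-labelled groups were level with each other and lay below both rescue-labelled ones. After normalization its pair differences lay between -0.09 and 0.04 log2. In a fit over all 27022 probe sets that passed the filter, which was added because probe sets with 2 symbols are not in the gene fit, limma gave -0.04 ± 0.12 log2 on the mean of both lines (adjusted p = 0.982), with a 95% interval of -0.32 to 0.23. That fit called 1.46% of probe sets on the mean, 0.485% in KO-labelled cells and 0.0851% in rescue-labelled cells.

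The dimmer Rbm3/Rbm3-ps probe set, 1429169_at, behaved otherwise. It read 366.5, 316.9 and 299 on KO-labelled preshocked arrays 5, 11 and 13, against 128.7, 253.2 and 152.5 on unheated arrays 6, 12 and 14. It read 585 and 713.2 on rescue-labelled preshocked arrays 31 and 43, against 412.7 and 402.2 on unheated arrays 32 and 44. The normalized means were 8.37 ± 0.04 in KO-labelled preshocked and 7.21 ± 0.80 in KO-labelled unheated arrays (SD, n = 3 each), and 9.38 ± 0.11 in rescue-labelled preshocked and 8.62 ± 0.10 in rescue-labelled unheated arrays (SD, n = 2 each). Preshocked arrays lay above unheated arrays without overlap in both lines. Groups without overlap in this direction made up 5.79% of the probe sets tested in the KO-labelled and 16.5% in the rescue-labelled line. The pair differences were 2.03, 0.46 and 1.01 log2 in KO-labelled and 0.61 and 0.90 in rescue-labelled cells. The mean of 0.96 ± 0.28 was not called over all probe sets (limma adjusted p = 0.184, and 0.106 with the block, which called 5.98% of probe sets), and neither were the KO-labelled value of 1.17 ± 0.36 (adjusted p = 0.3) and the rescue-labelled value of 0.76 ± 0.43 (adjusted p = 1). The mean was 0.77 without arrays 5 and 6 (0.0852). Within arrays the log2 ratio of the dimmer to the brighter set was higher after preshock in all 5 pairs, by 1.50, 0.13 and 0.87 in KO-labelled and by 0.36 and 0.85 in rescue-labelled cells. Which transcripts, or which of gene and pseudogene, each set reads is not known here, so the 2 sets are given side by side and not merged.

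**Figure D3:**
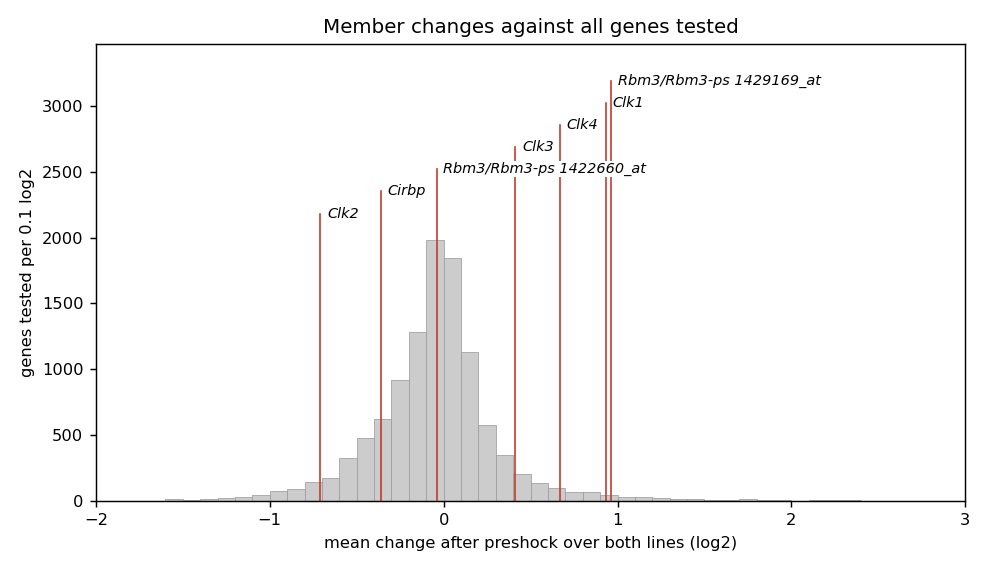
Histogram of the mean change after preshock over both lines (log2, horizontal axis) for the genes tested (count per 0.1 log2, vertical axis), with a red line at the value of each member; the heights of the lines carry no value. The 2 Rbm3/Rbm3-ps values come from the fit over all probe sets, and genes beyond the axis ends, such as Hspa1b at 6.20, are not drawn. Clk1 lies at percentile 98.1, Clk4 at 96.5, Clk3 at 93, Cirbp at 15 and Clk2 at 3.9 of the genes tested.

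No member was called for a difference between the lines in its response to preshock. Limma called 0 of the 10915 genes there (103, or 0.944%, at an unadjusted p under 0.05). For Clk2 the KO-labelled minus rescue-labelled response was -0.17 ± 0.23 log2 (limma adjusted p = 1, 95% interval -0.69 to 0.35), and for the dimmer Rbm3/Rbm3-ps set it was 0.41 ± 0.56 (limma adjusted p = 1, 95% interval -0.88 to 1.70). The second value was -0.03 without array 6 and -0.01 without arrays 5 and 6. These intervals are wide enough to hold a difference as large as the responses themselves for the Rbm3/Rbm3-ps set.

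Between the lines at rest and after preshock, 0 members were called, where limma called 0.421% of genes in unheated and 0.339% in preshocked cells (12.9% and 14.1% at an unadjusted p under 0.05). Of the 8 probe sets, 3 nevertheless read lower on every KO-labelled than on every rescue-labelled array of the same treatment. They include both Rbm3/Rbm3-ps sets, which carry the same symbols and are not independent members. The shares of genes or probe sets given below count 1 treatment at a time. Cirbp went the other way in preshocked cells, by a narrow margin after quantile normalization. Its lowest KO-labelled array was at 7.62 and its highest rescue-labelled array at 7.54 log2. No share of all genes without overlap in this direction is given here. Clk2 differed by -0.42 ± 0.16 log2 in unheated cells (limma adjusted p = 0.335) and by -0.58 ± 0.16 in preshocked cells (limma adjusted p = 0.187), and such groups without overlap, lower in KO-labelled cells, made up 14.9% and 16.6% of genes. The brighter Rbm3/Rbm3-ps set differed by -0.51 ± 0.17 in unheated cells (limma adjusted p = 0.407) and -0.44 ± 0.17 in preshocked cells (0.457). The dimmer one differed by -1.41 ± 0.40 in unheated cells (limma adjusted p = 0.32) and -1.001 ± 0.397 in preshocked cells (0.462), in a fit that called 0.074% and 0.0629% of probe sets and had 14.8% and 15.2% without overlap and lower. Clk3 stood at -0.31 ± 0.38 in unheated (limma adjusted p = 0.755) and -0.41 ± 0.38 in preshocked cells (0.666), and Cirbp at 0.24 ± 0.35 in unheated (0.802) and 0.28 ± 0.35 in preshocked cells (0.758); Clk3 reached 0.06 in unheated cells without array 6. Without array 44 the Cirbp difference in unheated cells was -0.34, and without array 32 it was 0.81. The scaling moved these line differences. With arrays centred on their medians, which put the median of all genes at -0.50 log2 in unheated and -0.42 in preshocked cells, Clk2 stood at -0.97 and -1.07, the brighter Rbm3/Rbm3-ps set at -1.20 and -1.09, Clk3 at -0.80 and -0.86, and Cirbp at -0.23 and -0.01, in unheated and preshocked cells in that order. The dimmer Rbm3/Rbm3-ps set stood there at -1.80 and -1.45, and 0 members were called.

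Some markers of other cell types also differed in level between the lines. The summed deposited intensity of the 5 muscle markers was 600.3 to 889.7 on KO-labelled arrays against 221.4 to 347.6 on rescue-labelled arrays, and that of the 5 neural markers 1987 to 2259 against 1046 to 1236. Most of these sums came from Acta1, which averaged 530.4 in KO-labelled and 171.1 in rescue-labelled arrays, and from Nes, at 1397 and 747.9. Acta1 was called as higher in KO-labelled cells, by 1.41 ± 0.20 log2 in unheated and 1.60 ± 0.20 in preshocked cells (limma adjusted p = 0.0346 and 0.0335, and 0.117 and 0.0833 with the block), and no other muscle or neural marker was. The second tested muscle marker, Myod1, stood at 0.70 ± 0.60 in unheated and -0.20 ± 0.60 in preshocked cells. Of the 5 neural markers, all tested, 3 had values above 0 in unheated and 4 in preshocked cells, from -0.24 to 1.74 and from -0.70 to 2.86 log2. Tubb3 averaged 288.3 in KO-labelled and 49.05 in rescue-labelled arrays, Gfap 101.8 and 42.75, and Sox10 94.32 and 58.97. Map2 averaged 281.6 in KO-labelled and 258.2 in rescue-labelled arrays. The median percentile among the probe sets on an array was 40 for the muscle and 59.4 for the neural markers. Acta1 at 72.6 and Nes at 85.4 were the highest of these lists.

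The median percentile of the 6 epithelial markers among the probe sets on an array was 40.5, that of the 6 leukocyte markers 50.5 and that of the 5 endothelial markers 41.9. The lowest of each list were Cdh1 at 22.5, Itgam at 16.7 and Pecam1 at 14.9, and the highest were Epcam at 56.4, Cd14 at 77.7 and Esam at 48.1. The epithelial sum was 191.5 to 1232 on KO-labelled arrays against 162.7 to 261.2 on rescue-labelled arrays, the leukocyte sum 752.8 to 1606 against 848.4 to 969.3 and the endothelial sum 78.54 to 488.5 against 143.3 to 222.1, so the lines overlapped in all 3. Limma called 0 of the 8 tested markers of these lists between the lines (2 leukocyte markers in preshocked cells had an unadjusted p under 0.05). The part of these cells in the line differences was not tested.

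The substrates of the CLK kinases were read from a list of 13 SR protein and Tra2 genes, of which 12 were on the arrays and 11 were tested. Limma called 0 of the 11 on the mean of both lines, where it called 4.42% of all genes. At an unadjusted p under 0.05 there were 3, and no share of all genes at that threshold is given here. For scale, the Clk4 change on the mean, with an unadjusted limma p of 0.0822, ranked 2348 of the 10915 genes by p. The median of the 11 was -0.12 log2 against -0.04 for all genes, with 2 of 11 values above 0. In the single lines 0 were called as well, where limma called 1.77% of all genes in KO-labelled and 0.357% in rescue-labelled cells. At an unadjusted p under 0.05 there were 1 in KO-labelled and 2 in rescue-labelled cells, again without a share of all genes. The 3 with the smallest p-values were Srsf4 at -0.56 ± 0.14 log2 (limma adjusted p = 0.0577), Srsf6 at -0.34 ± 0.10 (0.0997) and Srsf5 at -0.58 ± 0.18 (0.128), which encode SR proteins that act on exon choice. With the pair as a block these 3 passed as lower (limma adjusted p = 0.00848, 0.0183 and 0.00848), where the block called 11.5% of all genes as lower. Srsf3, a further SR protein, stood at -0.20 ± 0.13 log2 (0.538, and 0.081 with the block).

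Among 10 tested genes of the SR protein kinases and of the related Dyrk, Hipk and Prpf4b families, 1 was called, Dyrk3. On the mean of both lines limma called 4.42% of all genes, 1.84% as higher, and in KO-labelled cells 1.77%, 0.944% as higher. Dyrk3, a dual-specificity kinase known for dissolving stress granules and speckles, rose by 1.26 ± 0.18 log2 on the mean of both lines (limma adjusted p = 0.00874) and by 1.31 ± 0.23 in KO-labelled cells (0.0327). Dyrk1a, which also phosphorylates splicing factors, stood at 0.58 ± 0.18 (limma adjusted p = 0.126, and 0.00772 with the block), and Hipk1 at 0.43 ± 0.17 (0.22, and 0.0226 with the block). Prpf4b, a kinase of the spliceosome, stood at -0.44 ± 0.14 (limma adjusted p = 0.139, and 0.0156 with the block). The median of the 10 was -0.01 log2, and the block called 4 as higher and 2 as lower, where it called 17.4% of all genes in either direction and 11.5% as lower.

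**Figure D4:**
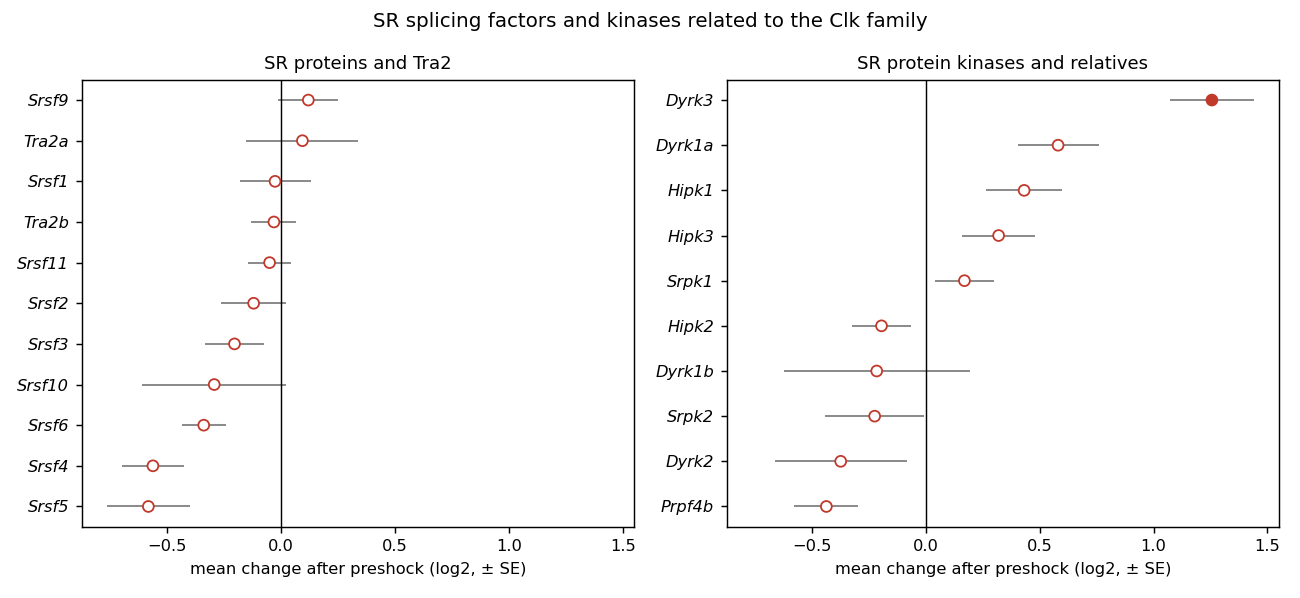
Mean change after preshock over both lines (log2, horizontal axis, bars ± SE) of the 11 tested SR protein and Tra2 genes (left) and the 10 tested related kinases (right). Filled circles passed an adjusted p of 0.05 and open circles did not; Dyrk3 at 1.26 is the one filled circle, and Srsf4 and Srsf5 are the lowest of the left panel.

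Other RNA-binding genes were mostly without a call on the mean of both lines, where limma called 4.42% of all genes. The counts at an unadjusted p under 0.05 below have no share of all genes beside them. Of 28 tested RNA-binding motif genes other than Rbm3, 2 rose, beside 1.84% of all genes: Rbm15, which guides RNA methylation, by 1.32 ± 0.19 log2 (limma adjusted p = 0.0086), and Rbm38, a p53 target that stabilizes mRNAs such as that of Cdkn1a, by 0.48 ± 0.10 (0.0388). With the block 3 of the 28 passed as higher and 3 as lower, beside the 17.4% of all genes that the block called. Their list had a median of 0.05 log2, and Rbm18 at 0.49 ± 0.16 and Rbm17 at -0.27 ± 0.11 were not called (limma adjusted p = 0.153 and 0.239). Of 22 hnRNP genes 0 were called (2 at an unadjusted p under 0.05), with a median of 0.04; Ptbp2, a splicing repressor, stood at 0.66 ± 0.17 (limma adjusted p = 0.07, and 0.0145 with the block) and Hnrnph3 at 0.39 ± 0.14 (0.173, and 0.0222 with the block). Of the cold shock domain proteins 4 were tested and 0 called (1 at an unadjusted p under 0.05). Carhsp1, an mRNA-stabilizing member, stood at 0.53 ± 0.18 (limma adjusted p = 0.162, and 0.0152 with the block), while Ybx1 and Ybx3 were at -0.02 ± 0.11 and -0.02 ± 0.13. Of 25 spliceosome and speckle genes 0 were called, beside 4.42% of all genes, and 0 passed with the block, beside 17.4%. Of these 25, 0 had an unadjusted p under 0.05, with a median of -0.01 and a range from -0.18 for Sf3a2 to 0.21 for Prpf6.

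Among 10 tested clock genes, a set tied to CIRBP by its binding of clock transcripts, 1 was called, beside 4.42% of all genes. The median of the 10 was 0.03 log2, with 5 values above 0. The called gene, Nr1d1, rose by 1.24 ± 0.24 log2 (limma adjusted p = 0.0261). Nr1d1 encodes the repressor REV-ERB alpha. Per2 stood at -0.79 ± 0.27 (limma adjusted p = 0.172, and 0.016 with the block), Per1 at 0.33 ± 0.16 (0.338) and Dbp at -0.29 ± 0.25 (0.705). The block called 11.5% of all genes as lower. For scale, 5 of 10 heat-inducible chaperone genes rose on the mean of both lines, Hspa1b by 6.20 ± 0.29, Dnajb1 by 2.76 ± 0.13, Hsph1 by 2.00 ± 0.16, Hspb1 by 1.81 ± 0.20 and Bag3 by 1.67 ± 0.13 log2 (limma adjusted p = 5.12e-05, 5.12e-05, 5.70e-04, 0.00296 and 5.70e-04). The changes of the Clk genes were smaller in size than each of these 5, which are the called ones. All 10 heat-inducible genes tested had values above 0, from 0.08 to 6.20 log2 with a median of 1.03. The lowest of them was therefore smaller in size than each Clk change.

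The kinases also differed in how they ran across the 10 arrays, which share scaling, line and treatment. As a description over 10 arrays, Clk1 had a Pearson r of 0.884 with Clk4 and 0.804 with Clk3, and Clk3 had 0.893 with Clk4. Clk2 had -0.538 with Clk1, -0.185 with Clk4 and 0.037 with Clk3. The 2 Rbm3/Rbm3-ps sets had 0.517 with each other. Among 10914 other genes the patterns most like Clk1 were those of Ccdc186 (r = 0.976), Cdr2 (0.975) and Klhl28 (0.969). For Clk2 they were Zkscan8 (r = 0.98), Klf2 (0.971) and Tmem165 (0.965), for Clk3 Ppp2r2a (0.968), Zfp821 (0.956) and Foxj3 (0.953), and for Clk4 Arap2 (0.979), Cep76 (0.965) and Ccnt2 (0.961). Cirbp ran most like Tarbp2 (r = 0.919), Tsc22d3 (0.892) and Cytip (0.847). The brighter Rbm3/Rbm3-ps set, 1422660_at, ran most like Jade3 (r = 0.965), Pdcl3 (0.964) and Elf1 (0.963), and the dimmer one, 1429169_at, most like Ptbp2 (0.961), Acbd3 (0.957) and Pdcd6ip (0.955).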

How the data were processed

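Total RNA of 10 samples was labelled by a one-cycle protocol and hybridised to Affymetrix mouse arrays, per the labels' protocols. The authors deposited linear intensity values, 1 per probe set and array, with the summarisation software not stated in the labels or headers. After 2% was trimmed at each end, the mean was 500.003 to 500.004 on every array. Array medians differed by up to 1.08 log2. Values under 1 (4935 of them) were set to 1, and log2 values were quantile normalized with limma 3.58.1 in R 4.3.3. Of 45101 probe sets, 64 were controls, 34945 had 1 gene symbol in the platform annotation, 932 several and 9160 none. Each gene took its 1-symbol probe set with the highest mean, and 60% of the 18193 genes, those brightest on average, were tested in 1 limma model with 4 group means (two-sided moderated tests, Benjamini-Hochberg adjustment over 10915 genes). The same model was fitted to 20967 probe sets with 1 symbol and, as an alternative chosen after seeing the data, to 27022 probe sets of any symbol, which hold both Rbm3/Rbm3-ps sets. The files hold no detection call or background per probe set. Precision is limited by the number of arrays.

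Arrays were paired by adjoining label numbers, a pairing that the labels do not state. The deviations from group means of the paired arrays correlated at 0.721, 0.376, 0.552, 0.37 and 0.37 over 10915 genes, with the 2 rescue-labelled pairs mirroring each other because each group holds 2 arrays; the block is a fixed pair effect, or for the lines a random effect (statmod 1.5.0, correlation 0.716). Members and lists were chosen with earlier results of these data known. The genes named are all members, up to 4 genes of each list with the smallest p-values on the mean of both lines and those called, and the 3 genes most correlated with each member. The fit was tested on simulated data.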

Additional observations from a re-analysis of the deposited data

How the results depend on the processing

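Over 598 refits of single members, 549 kept direction and side of the threshold, 29 lost a call, 5 gained one and 15 changed sign. Sign changes were in values near 0 or with wide errors. Median centring gave the brighter Rbm3/Rbm3-ps set 0.19 (KO-labelled response), 0.07 (rescue-labelled) and 0.13 (mean), and Cirbp -0.229 and -0.008 between unheated and preshocked lines. Without array 6 the Clk3 response and line difference, the KO-labelled value of the brighter Rbm3/Rbm3-ps set and the difference of responses of the dimmer set changed sign; without arrays 5 and 6 the brighter set was at 0.018, the Clk3 line difference at 0.057 and the dimmer set's difference at -0.006. Over the fits that each leave out 1 array, the KO-labelled response ran from -0.007 to 0.617 for Clk3 and from -0.084 to 0.071 for the brighter Rbm3/Rbm3-ps set, the rescue-labelled response of Cirbp from -0.953 to 0.195, the difference of responses of the dimmer set from -0.026 to 0.756, and the unheated line difference from -0.338 to 0.808 for Cirbp and from -0.569 to 0.057 for Clk3. The cause was not tested.

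Members called in the KO-labelled line, 1 in the report, were 0 with median centring, with no filter, with probe sets averaged and without arrays 5 and 6, and 2 with the pair block; in the rescue-labelled line the block gave 2. On the mean of both lines, 2 in the report, they were 0 with median centring and with no filter and 1 with probe sets averaged. Over probe sets with 1 symbol the mean gave 1 (Clk2), with 0 under median centring and no filter, 3 with the block, and 2 without arrays 5 and 6 or with a robust trended prior; the KO-labelled line gave 0, with 2 under the block and 1 under the robust prior. Leaving out 1 array gave 0 to 1 members in the KO-labelled line, 0 in the rescue-labelled line and 0 to 2 on the mean, and 0 to 1 probe sets on the mean.

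Genes called in the KO-labelled line (193) were 28 with median centring, 28 with no filter, 101 with probe sets averaged, 999 with the pair block and 49 to 142 without 1 array. In the rescue-labelled line (39) they were 7, 10, 164 with the block, 88 without arrays 5 and 6 and 10 to 59 without 1 array. On the mean (482) they were 127, 167, 255 with probe sets averaged, 1901 with the block and 185 to 493 without 1 array. The difference of responses had 0 calls, 1 with no filter and 0 without any 1 array. Unheated lines (46) had 10 with no filter, 20 with probe sets averaged, 22 with the block, 95 without arrays 5 and 6 and 5 to 43 without 1 array. Preshocked lines (37) had 22 with median centring, 67 with a floor of 32, 6 with no filter, 9 with probe sets averaged, 16 with the block, 63 without arrays 5 and 6 and 0 to 46 without 1 array. Median centring left 89.3% of KO-labelled calls higher (53.4% in the report), 62.2% on the mean (41.7%), 100% in the rescue-labelled line (76.9%), 40.6% between unheated (73.9%) and 31.8% between preshocked lines (70.3%), and moved the median of all genes to -0.50 and -0.42 log2 between the lines. With no filter 18193 genes were tested, so adjustment ran over more genes.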
